A study of Mus musculus with 9 samples.

Results

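Chemokines are small secreted proteins that attract leukocytes, and chemokine receptors are the G protein-coupled receptors through which cells sense them. The genes described here are those of the array whose symbol begins with Ccl, Cxcl, Ccr, Cxcr or Cx3c followed by a digit, with Cx3cl1 and Cx3cr1 included. The rule used only the symbols given in the array files and no measured value. It found 50 probes of 45 genes, 31 ligands and 14 receptors, among the 15674 genes named on the array.

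The RNA came from the jejunum of 9 male OF1 mice, an outbred stock, at an age of 7 weeks. The mice belonged to generation 3 of a feeding trial, with 3 mice each on feed B, feed K and feed G, and were sampled without randomization for the time of day. A 2 cm piece around the bend of the jejunum was taken from each mouse and hybridised to 1 single-colour array, so each value is that of 1 animal. The labels name no control feed and leave the letters unexplained, and each feed is therefore compared with the others. Nothing says that the mice came from separate cages, so p-values measure only the spread between these mice. Within a whole tissue piece, fewer cells of a type cannot be told apart from less RNA per cell.

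The values are log2 signal after quantile normalization, and detection of a gene in a mouse means that the signal of a probe of it was at least 3 times the noise. Between 33.7% and 48.1% of the probes were detected per array, lowest in feed B mouse 8 and feed B mouse 7. The presence of intestinal epithelium was checked with 7 enterocyte markers on the array, of which 6 were detected on all 9 arrays. Their summed log2 signal lay between 21.07 and 21.82 in all mice. This check cannot tell the jejunum from other segments of the small intestine. Of 6 neutrophil markers, none was detected on 3 or more arrays.

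Chemokines of the healthy small intestine fall into groups with different known tasks. Ccl25 is made by the epithelium and draws lymphocytes carrying its receptor Ccr9 to the small bowel. Cxcl13, Ccl19 and the Ccl21 genes organise B and T cells in Peyer's patches and isolated follicles. Cxcl9, Cxcl10 and Cxcl11 are induced by interferon and bind Cxcr3 on activated T cells, whereas Ccl5 is produced by cytotoxic lymphocytes themselves and by other cells.

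Few of these genes gave a signal in every mouse, and ligands did so more often than receptors. All 9 arrays detected 6 of the 45 genes, namely Ccl25, the Ccl21 genes, Ccl6, Ccl5, Cxcl12 and Cx3cl1, and all of these encode ligands. A further 16 were detected on 5 to 8 arrays, 6 on 3 or 4 arrays and 9 on 1 or 2 arrays. The other 8, with no detection in any mouse, were Ccl3, Cxcl2, Cxcl5 and Cxcl7 among the ligands and Ccr1, Ccr1l1, Ccr4 and Ccr8 among the receptors. At least 5 arrays detected 20 of 31 ligand genes but only 2 of 14 receptor genes, Ccr3 and Ccr6. Together these were 48.9% of the 45 genes, beside 54.6% of all genes. Of all 15674 genes, 5887 were detected on all 9 arrays. The number of the 45 genes detected per mouse ran from 12 in feed B mouse 8 to 31 in feed G mouse 8. It was 17, 12 and 24 in the mice 7, 8 and 10 of feed B, 18, 26 and 20 in the mice 1, 3 and 4 of feed K, and 23, 31 and 22 in the mice 4, 8 and 11 of feed G, so the feeds overlapped. Over the whole array the fewest genes were likewise detected in feed B mouse 8, 7043, and the most in feed G mouse 8, 9627. Feed B mouse 7 had 7562 and feed K mouse 3 had 9618. Of the 450 spots of these probes, 145 had a signal-to-noise ratio below 1, and in all 145 the deposited signal equalled its standard deviation, so differences among such spots carry no order. A failed quality flag removed 10 spots.

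**Figure D1:**
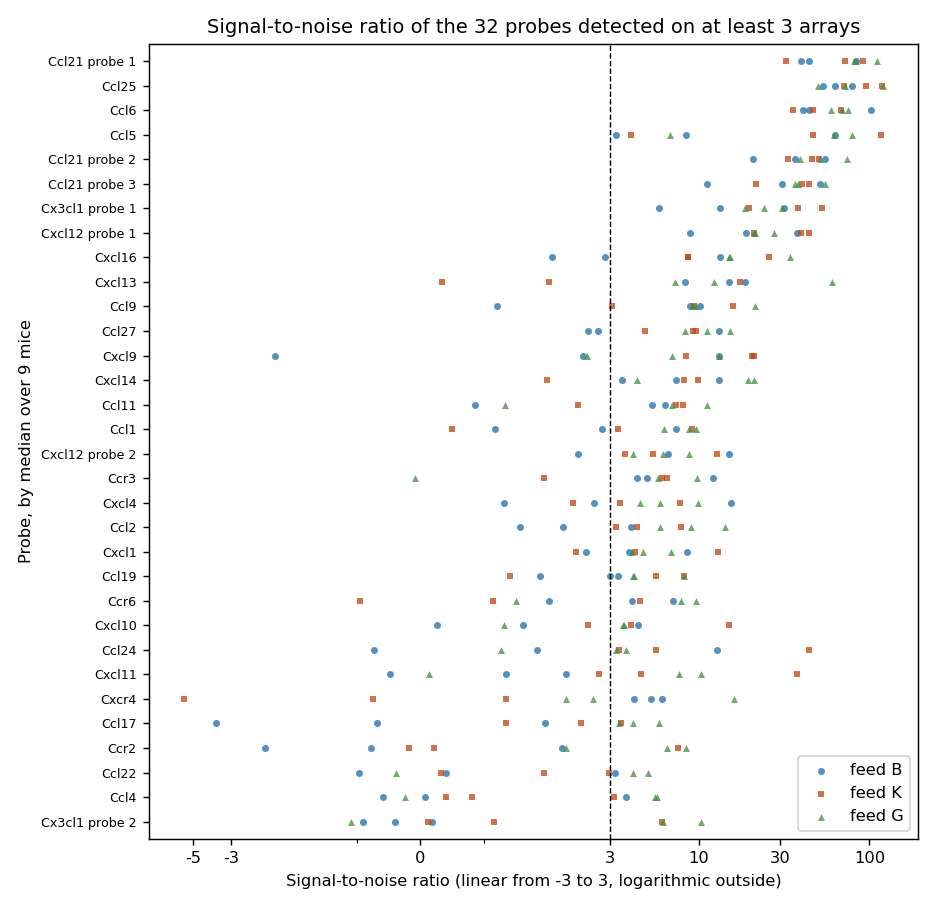
Signal-to-noise ratio (horizontal axis, linear between -3 and 3 and logarithmic outside) of the 32 chemokine and receptor probes detected on at least 3 arrays (rows, ordered by their median) in the 9 mice, with 1 symbol per mouse coloured by feed. The broken line marks a ratio of 3, the limit for detection, and the probes of Ccl21, Ccl25, Ccl6 and Ccl5 lie to its right in every mouse, Ccl5 over the widest range.

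Whether the feed changed these genes was tested with limma over the 28 of the 45 genes that were detected on at least 3 arrays, 24 ligands and 4 receptors. None passed after adjustment over all 9652 genes tested, and no gene of the array did (percent called 0). At an unadjusted limma p below 0.05 for any difference among the 3 feeds, 1 of the 28 genes was called, Cxcl10, against 5.37% of all genes, and by the exact permutation test of F 1 was. Between feeds K and B, 5 of the 28 genes were called at an unadjusted p below 0.05, beside 6.31% of all genes. Of these, Cxcl9 and Cxcl10 had a higher signal on feed K (background 4.34%), and Cxcl12, Cxcl13 and Cxcr4 a lower one (background 1.97%). Between feeds G and B, where 5.74% of all genes were called, none of the 28 was higher on feed G (background 3.84%) and 1 was lower, Cxcl12 (background 1.90%). Between feeds G and K, where 4.54% were called, none was higher on feed G (background 2.14%) and 1 was lower, Cxcl10 (background 2.39%). The smallest adjusted p of any of these was 0.784, and the 3 comparisons share their samples in pairs. Single mice moved these numbers: without feed B mouse 10 the calls among the 28 genes were 6 for any difference, 6 between feeds K and B, 5 between feeds G and B and 3 between feeds G and K, and without any other single mouse they ranged from 0 to 3, from 1 to 5, from 0 to 4 and from 1 to 3.

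The median difference over the 28 genes was -0.13 from feed B to feed K, 0.09 from feed B to feed G and 0.38 from feed K to feed G on the log2 scale, beside 0.05, 0.06 and -0.01 over all genes tested. With the arrays scaled to a common median instead, the median over all genes moved to 0.41, 0.53 and 0.11 and that over the 28 genes to 0.04, 0.39 and 0.38. The calls between feeds K and B then numbered 0 higher and 2 lower, Cxcl13 and Cxcr4, while over all genes 1173 were higher and 57 lower, against 419 and 190 with quantile normalization. Over all genes the split of higher to lower moved from 371 and 183 to 1748 and 50 between feeds G and B, and from 207 and 231 to 236 and 123 between feeds G and K. Among the 28 genes these comparisons then called Ccl2 as higher and none as lower between feeds G and B, and Ccl2 and Cxcl13 as higher and Cxcl10 as lower between feeds G and K.

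Among the 26 genes with a value in every mouse, the 3 mice of feed K lay apart from the 3 of feed B for 1 gene, or 3.85%, beside 9.94% of all genes. Feeds G and B did not overlap for 3 genes, or 11.5%, beside 10.9% of all genes. Feeds G and K did not overlap for 5 genes, or 19.2%, beside 13.7%. These were Ccl1 and Ccl2, higher on feed G, and Ccl25, Cxcl9 and Cxcl10, higher on feed K. For Cxcl10 this rested on the value of feed K mouse 1, in which it was not detected.

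**Figure D2:**
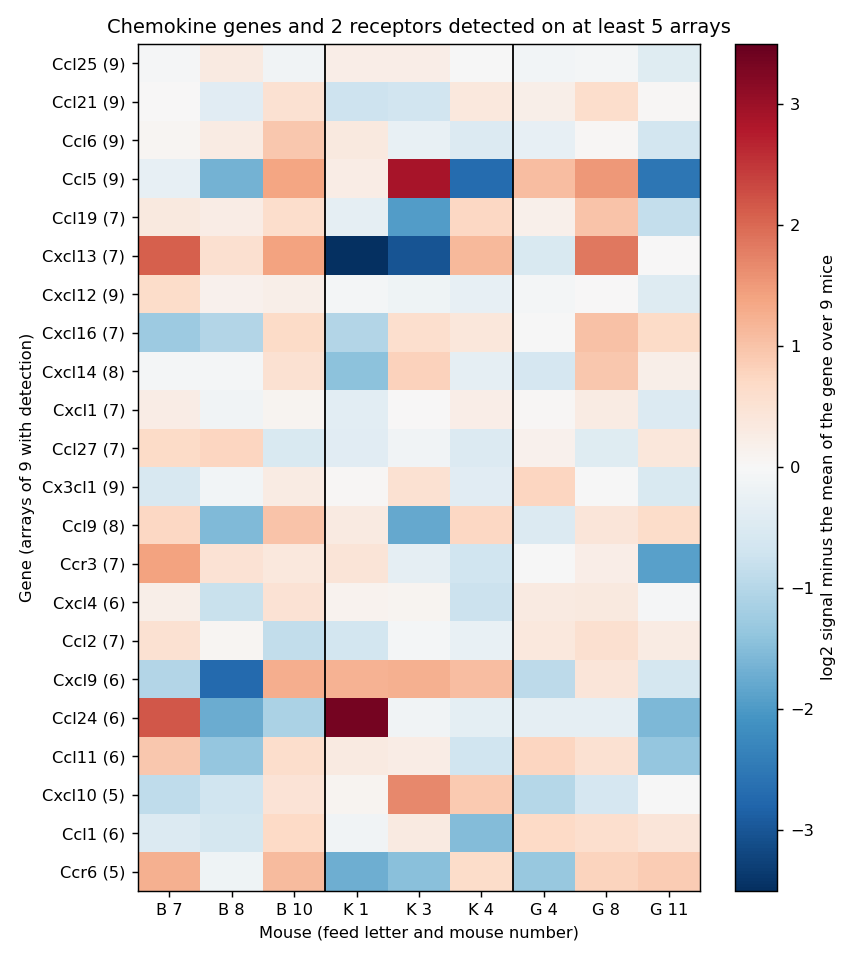
Log2 signal of the 22 genes detected on at least 5 arrays (rows, brightest first, with the number of arrays in parentheses) in the 9 mice (columns, by feed), as the difference from the mean of the gene over all mice, red for higher and blue for lower. Cxcl13, Ccl24 and Ccl5 show the deepest colours: the deepest blue fields of Cxcl13 are those of mice 1 and 3 of feed K, the deepest red field of Ccl24 is that of feed K mouse 1, and Ccl5 is red and blue within each feed.

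Ccl25 was the steadiest of the genes detected in every mouse. Its log2 signal was 15.53, 15.88 and 15.45 in the mice 7, 8 and 10 of feed B, 15.81, 15.79 and 15.55 in the mice 1, 3 and 4 of feed K, and 15.48, 15.49 and 15.14 in the mice 4, 8 and 11 of feed G. All mice thus lay within a 1.67-fold range, although every feed G mouse was below every feed K mouse. The difference between feeds G and K was -0.35 on the log2 scale with a 95% interval of 0.46 on either side (limma adjusted p = 0.960). The SD of Ccl25 over the 9 mice, 0.23, stood at percentile 30.8 among the 5887 genes detected on all arrays. Its receptor Ccr9 was detected on only 2 arrays, those of feed B mouse 10 and feed K mouse 3. Ccl28, another mucosal chemokine, was detected on 1 array. Ccr6, the receptor that guides B cells and dendritic cells to the dome of Peyer's patches, was detected on 5 arrays and is described with the lymphoid genes.

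Among the chemokines of lymphoid tissue, Cxcl13, the main attractant of B cells, was detected in every mouse of feeds B and G and in feed K mouse 4, and was near background in the mice 1 and 3 of feed K. Cxcl13 had log2 signals of 11.83, 10.28 and 11.13 in the mice 7, 8 and 10 of feed B and of 9.20, 11.59 and 9.73 in the mice 4, 8 and 11 of feed G. In feed K they were 6.24, 6.71 and 10.86 in the mice 1, 3 and 4, and the first pair were the only arrays on which the gene was not detected. The mean signal was 11.08 ± 0.78 on feed B, 7.94 ± 2.54 on feed K and 10.18 ± 1.25 on feed G (SD, n = 3 each). From feed B to feed K the difference was -3.14 with a 95% interval of 2.73 on either side (limma adjusted p = 0.784). Without the mice 1 and 3 of feed K it was -0.22, with 1 mouse of that feed remaining.

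Ccr6 was not detected in these mice, nor in feed B mouse 8 and feed G mouse 4, so the order among these 4 is not read. Its log2 signal was 5.36 and 5.60 in the mice 1 and 3 of feed K and 7.71 in mouse 4, against 8.30, 6.91 and 8.17 on feed B and 5.72, 7.84 and 7.95 on feed G. Ccl21, measured by 3 probes that each match Ccl21a, Ccl21b and Ccl21c, was detected everywhere and was lowest in the mice 1 and 3 of feed K, at 12.72 and 12.77, against 13.81 in feed K mouse 4, 13.47, 13.06 and 13.99 on feed B, and 13.64, 14.06 and 13.50 on feed G. Its spread was small, 2.52-fold over all mice, and the 3 probes had correlations over the 9 mice between 0.990 and 0.992. Ccl19, which like Ccl21 binds Ccr7, was lowest in feed K mouse 3 (8.41), followed by feed G mouse 11 (9.51) and feed K mouse 1 (10.04), and ranged up to 11.36 in feed G mouse 8. It was not detected in feed B mouse 7 and feed K mouse 3. Ccr7 itself was detected in feed G mouse 8 only.

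Cxcr4, the receptor of Cxcl12 and found on most lymphocytes, was detected in all 3 mice of feed B, at 9.50, 7.04 and 8.56, in feed G mouse 8, at 8.83, and in no mouse of feed K. On feed K the spot of mouse 3 carried a failed flag and the other mice gave 6.47 and 5.81. The mean signal on feed B was 4.37-fold that on feed K, where signals below the dimmest detected probe were raised to it. In feed K mouse 1 the signal-to-noise ratio was -0.75, so the signal equalled its standard deviation and this fold is not a lower bound. The fitted difference was -2.22 on the log2 scale (limma adjusted p = 0.786). The fold and the fit used only 2 mice of feed K. With 1 mouse of feed B left out the fold ran from 2.95 without mouse 7 to 6.92 without mouse 8.

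B cell markers had the same low mice. Of 10 B cell and follicle markers on the array, 6 were detected on at least 5 arrays, and their summed log2 signal lay between 11.87 and 12.82 on feed B and between 11.48 and 12.75 on feed G. On feed K it was 10.09, 9.77 and 12.61 in the mice 1, 3 and 4. Cd79a, a signalling subunit of the B cell receptor, had 7.54 and 8.02 in the mice 1 and 3 of feed K against 9.27 to 10.82 in all others, and Cr2, carried by B cells and follicular dendritic cells, had 6.80 and 5.35 against 7.63 to 9.26. All 8 tested B cell markers had a lower mean on feed K than on feed B, with a median difference of -1.40, and 2 of the 8 were called as lower at an unadjusted limma p below 0.05, beside 1.97% of all genes, and none after adjustment. Of 16 T cell and intraepithelial lymphocyte markers on the array, 10 were detected on at least 5 arrays, and their sum was 13.11 and 14.71 in the mice 1 and 3 of feed K, within or above the 11.26 to 13.32 of the other 7. The part that the amount of follicle tissue in a piece has in the signal of these chemokines was not tested. Because the mice fall into separate groups here, no correlation is given.

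**Figure D3:**
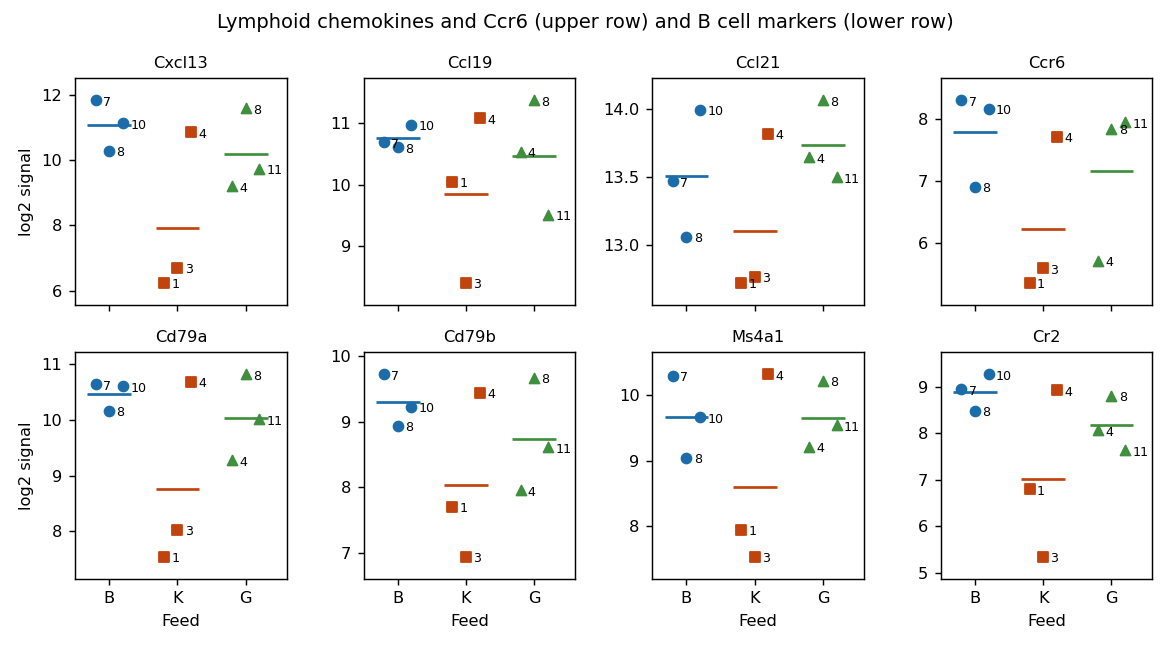
Log2 signal of Cxcl13, Ccl19, Ccl21 and Ccr6 (upper row) and of the B cell markers Cd79a, Cd79b, Ms4a1 and Cr2 (lower row) by feed, with 1 point per mouse, labelled with its number, and a line at the mean of 3 mice. The mice 1 and 3 of feed K lie lowest for all of these genes except Ccl19, where feed G mouse 11 at 9.51 is below feed K mouse 1 at 10.04. Ccr6 was not detected in the mice 1 and 3 of feed K, in feed B mouse 8 or in feed G mouse 4, so the order among these is not read.

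The start regions of Cxcl13 and Ccl19 are shown because these genes had the widest ranges among the lymphoid ligands. RefSeq gives 250 bases before and 50 bases after the transcription start in the assembly GRCm38.p6, and 34 of the 45 genes had at least 1 such sequence. The window of Cxcl13 is chr5:95956689-95956988 on the plus strand and that of Ccl19 is chr4:42756316-42756615 on the minus strand, both written 5′ to 3′. Capitals mark matches, on either strand, to an interferon-stimulated response element core (GAAA, any 2 bases, GAAA), an interferon-gamma activated site (TTC, any 3 bases, GAA), the NF-kB consensus, a CCAAT box (CCAAT) or a TATA box (TATAAA).
Cxcl13: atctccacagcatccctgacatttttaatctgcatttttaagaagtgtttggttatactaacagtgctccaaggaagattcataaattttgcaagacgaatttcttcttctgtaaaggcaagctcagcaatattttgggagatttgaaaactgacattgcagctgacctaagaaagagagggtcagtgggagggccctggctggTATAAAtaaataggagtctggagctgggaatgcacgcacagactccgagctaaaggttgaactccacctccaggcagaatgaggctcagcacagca
Ccl19: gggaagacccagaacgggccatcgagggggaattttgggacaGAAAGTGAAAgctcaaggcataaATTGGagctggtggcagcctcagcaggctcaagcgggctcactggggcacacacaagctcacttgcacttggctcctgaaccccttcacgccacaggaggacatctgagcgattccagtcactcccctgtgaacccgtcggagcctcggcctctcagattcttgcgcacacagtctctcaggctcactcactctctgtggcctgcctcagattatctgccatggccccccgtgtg
Cxcl13 holds a TATA box at positions -46 to -41 from the start, a motif found in 13.6% of all 32851 promoters of that length. Ccl19 holds a response element core at -208 to -199, found in 3.44% of all promoters, and a CCAAT box on the opposite strand.

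The interferon-induced ligands had their highest mean signal on feed K. Cxcl10 had log2 signals of 7.93, 9.53 and 8.74 in the mice 1, 3 and 4 of feed K, of 6.96, 7.15 and 8.32 in the mice 7, 8 and 10 of feed B, and of 6.86, 7.25 and 7.82 in the mice 4, 8 and 11 of feed G. All feed K mice lay above all feed G mice, and feed B mouse 10 reached into the range of feed K. The lowest feed K mouse, mouse 1, was not detected and lay just above feed G mouse 11, which was detected. Before normalization their signals were 216 and 259, in the reverse order. The means were 8.73 ± 0.80 on feed K, 7.48 ± 0.74 on feed B and 7.31 ± 0.48 on feed G (SD, n = 3 each). The difference was 1.26 between feeds K and B and -1.43 between feeds G and K, each with a 95% interval of 1.15 on either side (limma adjusted p = 0.786 and 0.960). Without feed K mouse 3 the difference between feeds K and B was 0.83, and without the mice 7 and 8 of feed B it was 0.42. Cxcl10 was detected on 5 arrays only, those of feed B mouse 10, of the mice 3 and 4 of feed K and of the mice 8 and 11 of feed G.

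Cxcl9 had 9.14, 9.16 and 8.98 on feed K and 7.00, 8.34 and 7.30 on feed G, again without overlap. On feed B the mice 7, 8 and 10 had 6.89, 5.20 and 9.19, and only the last was detected. Feed K exceeded feed B by 2.00 with a 95% interval of 1.99 on either side (limma adjusted p = 0.786). It was 1.10 without feed B mouse 8 and 3.06 without feed B mouse 10. The mice 7 and 8 of feed B had the arrays with the lowest share of detected probes, and without both the difference was -0.10. Cxcl11 was detected in no mouse of feed B, in 2 of feed K and in 2 of feed G, and was highest in feed K mouse 3 at 10.55. Its mean signal on feed K was 3.45-fold that on feed B, and 2.11-fold without feed K mouse 3. The limit of the dimmest detected signals left the feed B mean unchanged, so these folds are not lower bounds. The fitted difference was 1.79 with a 95% interval of 2.01 on either side (limma adjusted p = 0.797). Feed B mouse 7, not detected, had 8.59, above feed K mouse 4 at 8.17. Cxcr3, the shared receptor of these ligands, was detected in feed K mouse 3 only.

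Other interferon response genes had a lower mean on feed G than on feed K with 1 exception, Mx1, and differed in how feed B stood to feed K. Of 16 genes listed, 11 were on the array, all detected on 9 arrays, and 5 had an unadjusted limma p below 0.05 among the feeds, beside 5.37% of all genes, but none passed adjustment. These were Irf1, a transcription factor, Igtp, a GTPase of the immune response to pathogens, Psmb9, a subunit of the immunoproteasome, Tap1, a peptide transporter of antigen presentation, and G1p2, a ubiquitin-like modifier. Irf1 had a mean of 13.48 ± 0.21 on feed K, 13.11 ± 0.05 on feed B and 12.74 ± 0.18 on feed G (SD, n = 3 each). Tap1 had 11.33 ± 0.27, 10.52 ± 0.08 and 9.77 ± 0.95 in the same order. G1p2 was highest on feed B, with means of 8.55 on feed K, 9.31 on feed B and 8.34 on feed G. Between feeds G and K, 10 of the 11 genes had a lower mean on feed G, with a median difference of -0.75, beside -0.01 over all genes tested. Of these, 5 were called as lower at an unadjusted limma p below 0.05, Irf1, Igtp, Psmb8, Psmb9 and Tap1, beside 2.39% of all genes. Without feed G mouse 11, the lowest for all 5, the differences of Psmb8, Psmb9 and Tap1 went from -1.73, -1.74 and -1.56 to -0.89, -1.13 and -1.03. Between feeds K and B, 7 of the 11 had a higher mean on feed K, with a median difference of 0.37. At an unadjusted limma p below 0.05 none was called as higher (background 4.34%) and 1 as lower, G1p2 (background 1.97%). This count depended on the scaling: with the arrays scaled to a common median 5 of the 11 were called as higher, Gbp2, Igtp, Irf1, Psmb9 and Tap1, where 1173 of all genes were, and these 5 were also called with the series table, where 478 of all genes were. Without feed G mouse 11, Psmb8, Psmb9 and Tap1 were called as higher on feed K. The summed log2 signal of the 11 genes was 15.62 to 16.25 on feed K, 14.88 to 15.64 on feed B and 13.85 to 15.11 on feed G.

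**Figure D4:**
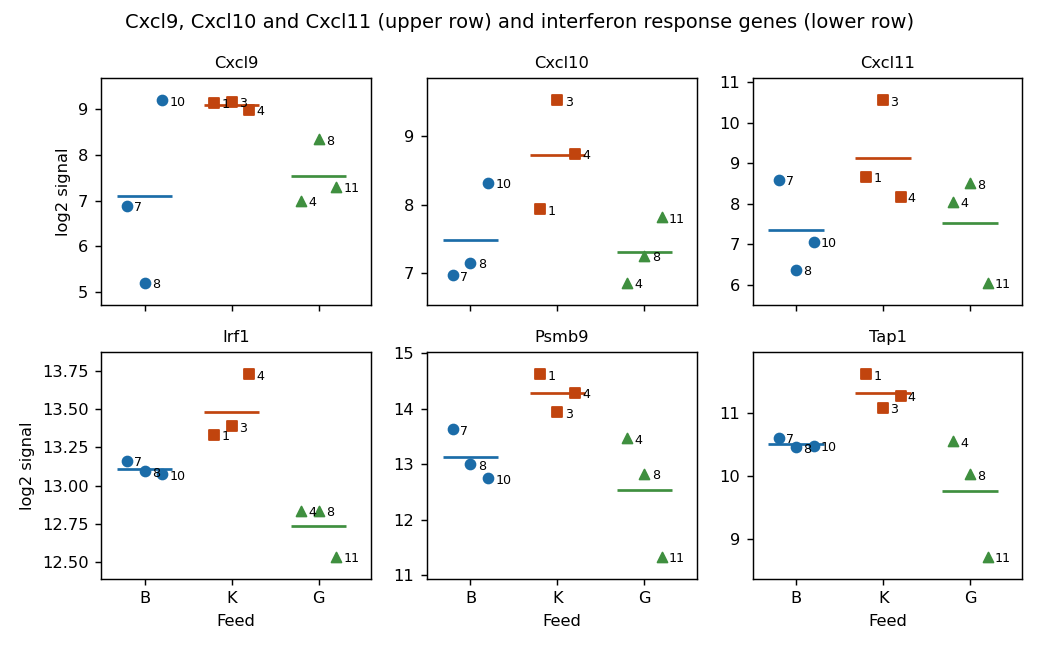
Log2 signal of the interferon-induced ligands Cxcl9, Cxcl10 and Cxcl11 (upper row) and of the interferon response genes Irf1, Psmb9 and Tap1 (lower row) by feed, with 1 point per mouse, labelled with its number, and a line at the mean of 3 mice. Cxcl9, Cxcl10, Irf1, Psmb9 and Tap1 have every feed K mouse above every feed G mouse, and Cxcl11 overlaps. For Cxcl10 feed K mouse 1, not detected, lies just above feed G mouse 11.

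Cxcl9 and Cxcl10 lie next to each other and to Cxcl11 on mouse chromosome 5, and their start regions are shown because both had an unadjusted limma p below 0.05 between feeds K and B. In the assembly GRCm38.p6 the window of Cxcl9 is chr5:92328030-92328329 and that of Cxcl10 is chr5:92348840-92349139, both on the minus strand and written 5′ to 3′, with the same motifs in capitals as above.
Cxcl9: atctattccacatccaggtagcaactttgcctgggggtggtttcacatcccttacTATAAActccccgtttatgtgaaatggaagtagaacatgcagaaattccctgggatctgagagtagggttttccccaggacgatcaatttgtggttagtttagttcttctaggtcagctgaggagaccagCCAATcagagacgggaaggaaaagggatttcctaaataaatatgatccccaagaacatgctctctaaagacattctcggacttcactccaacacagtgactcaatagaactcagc
Cxcl10: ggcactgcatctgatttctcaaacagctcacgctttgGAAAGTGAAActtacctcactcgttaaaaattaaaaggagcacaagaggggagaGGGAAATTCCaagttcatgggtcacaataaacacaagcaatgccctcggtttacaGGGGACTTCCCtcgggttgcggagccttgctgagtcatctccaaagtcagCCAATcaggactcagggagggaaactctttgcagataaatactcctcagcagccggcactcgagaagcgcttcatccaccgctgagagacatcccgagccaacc
Cxcl10 holds a response element core at -213 to -204 and 3 matches to the NF-kB consensus, of which those at -104 to -95 and at -103 to -94 overlap. The consensus was found in 8.46% of all promoters. Cxcl9 holds a match to the letters TATAAA at -195 to -190, which 13.6% of all promoters hold at some position. Both windows hold a CCAAT box in the forward direction, at -54 to -50 in Cxcl10 and at -65 to -61 in Cxcl9, a motif of 37.4% of all promoters. Cxcl9 had no match to the interferon or NF-kB motifs within this window. Among the 34 genes with a sequence, the response element core was found for Ccl19, Cxcl10 and Cxcl14 and the NF-kB consensus for 9 genes.

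Ccl5, which attracts T cells, eosinophils and monocytes, was detected in every mouse and differed between mice more than nearly all other genes. Its log2 signal was 10.79, 9.42 and 12.47 in the mice 7, 8 and 10 of feed B, 11.34, 13.96 and 8.39 in the mice 1, 3 and 4 of feed K, and 12.17, 12.59 and 8.56 in the mice 4, 8 and 11 of feed G. Feed K held both the highest and the lowest mouse, 47.3-fold apart, and the 3 feeds overlapped throughout. The signal-to-noise ratio ran from 3.26 in feed B mouse 8 to 117 in feed K mouse 3. The SD of 1.94 stood at percentile 99.9 among genes detected on all arrays. The means were 10.89 ± 1.53 on feed B, 11.23 ± 2.78 on feed K and 11.11 ± 2.22 on feed G (SD, n = 3 each), and the feed test gave a limma adjusted p of 0.996. The 95% intervals of the 3 differences extended 3.59 to either side, so that differences of several-fold between feeds could not be detected for this gene.

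Of the other inflammatory ligands, Ccl6 was detected in all mice, at 13.34, 13.56 and 14.22 on feed B, 13.62, 13.03 and 12.81 on feed K and 12.99, 13.32 and 12.63 on feed G. Every feed G mouse lay below every feed B mouse, with a difference of -0.73 and a 95% interval of 0.74 on either side (limma adjusted p = 0.858). Ccl9 was detected on 8 arrays and ranged from 6.93 in feed K mouse 3 to 9.74 in feed B mouse 10. Ccl2, the main monocyte attractant, was detected on 7 arrays, in 1 mouse of feed B and in all mice of feeds K and G. Its mean was 8.37 ± 0.14 on feed G and 7.64 ± 0.30 on feed K (SD, n = 3 each), without overlap (limma adjusted p = 0.960). On feed B the mean was 7.86 ± 0.71 (SD, n = 3), and feed B mouse 7 had 8.49 without being detected. Ccl7 was detected in feed K mouse 4 alone. Among the receptors of this group, Ccr2 was detected on 3 arrays and Ccr1 on none.

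Ccl4 was detected on 4 arrays, and these were exactly the 4 mice with the highest Ccl5, namely feed B mouse 10, feed K mouse 3 and the mice 4 and 8 of feed G. Its log2 signal there was 7.89, 8.17, 7.84 and 8.27, against 5.64 to 6.81 in the other 5 mice. Of the 486 genes of the array that were detected on exactly 4 arrays, 22 had the same set of mice. Over all 9 mice its correlation with Ccl5 was 0.908, given as a description because most of its values were below the detection limit. Ccl3, the near relative of Ccl4, was not detected in any mouse.

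Which other chemokine genes followed Ccl5 over the mice was tested for the 21 genes with detection on at least 5 arrays and a value in each mouse, with exact permutation of the 9 mice. None passed after Benjamini-Hochberg adjustment over the 21, and the median correlation was 0.25. The genes with an unadjusted exact p below 0.05 were Ccl11 (r = 0.761, rho = 0.450, p = 0.0197 for r, adjusted 0.181), Cx3cl1 (r = 0.760, rho = 0.717, p = 0.0196 for r, adjusted 0.181) and Cxcl4 (r = 0.727, rho = 0.667, p = 0.0259 for r, adjusted 0.181). For Ccl11 and Cxcl4 r was 0.567 and 0.685 without the 2 mice farthest from the median of Ccl5, feed K mouse 4 and feed G mouse 11. Neither they nor Cx3cl1 were then below an exact p of 0.05. Other genes were, namely Cxcl16 (r = 0.814, exact p = 0.0222), Ccl1 (r = 0.785, exact p = 0.0323) and Cxcl9 (r = 0.782, exact p = 0.0339), each with an adjusted p of 0.2375. With the arrays scaled to a common median, Ccl11, Cxcl4, Cx3cl1 and Cxcl12 passed adjustment. The value of Cx3cl1 rested on a dim probe detected on 3 arrays, since the probe detected on all arrays had a correlation with Ccl5 of 0.02. Ccr6 (r = -0.403), Ccl27 (-0.363) and Cxcl13 (-0.316) stood at the negative end. In the assembly GRCm38.p6 Ccl5 lies on chromosome 11 between Ccl1 and Ccl9, with Ccl11 and Ccl2 on the side of Ccl1 and Ccl6 on that of Ccl9. The correlations with Ccl5 were 0.658 for Ccl1, 0.761 for Ccl11 and -0.071 for Ccl2 on one side, and -0.297 for Ccl9 and 0.375 for Ccl6 on the other.

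Some genes of cytotoxic lymphocytes followed Ccl5 over the mice, and others did not. Of 74 cell type markers and pathway genes detected on at least 5 arrays, 5 passed adjustment over the 74, and 3 of these belong to the T cell and intraepithelial lymphocyte list. Nkg7, a granule protein of killer cells, was detected on 7 arrays. It had r = 0.988 and rho = 0.95 over the 9 mice (exact permutation p = 1.93e-05 for r, adjusted 0.00143). Its log2 signal was 9.84, 8.85 and 10.54 on feed B, 10.31, 11.97 and 8.27 on feed K and 10.67, 10.60 and 8.48 on feed G, in the mouse order given for Ccl5. Without the 2 mice farthest from the median of Ccl5 its r was 0.975 (exact p = 0.000992, adjusted 0.0367), and after subtracting the feed means it was 0.992. Permutation within feeds cannot give a p below 0.00463, and none of the 74 genes passed adjustment in that test. With 1 mouse left out, Nkg7 passed in every case and had r between 0.984 and 0.992. It was the only gene to pass without feed B mouse 7, feed K mouse 3, feed G mouse 4 or feed G mouse 8, and 2 or 3 genes passed without feed B mouse 8, feed B mouse 10, feed K mouse 1 or feed G mouse 11.

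Gzmb, a granule protease that starts apoptosis in target cells, had r = 0.937 and rho = 0.867 (exact permutation p = 0.000424 for r, adjusted 0.0157). Gzma, its companion, had r = 0.873 and rho = 0.883 (exact permutation p = 0.00197 for r, adjusted 0.0365). Gzmb and Gzma were each detected on 8 arrays. Gzmb and Gzma were no longer past adjustment without the 2 farthest mice, with r = 0.873 and 0.910, whereas Cd3g then passed beside Nkg7. Cd3g and Cd3d, subunits of the T cell receptor complex, had r = 0.809 and 0.846 without passing (adjusted exact p = 0.0815 and 0.0736). They were detected on 5 and 7 arrays. The correlations of Nkg7, Gzmb, Gzma, Cd3g and Cd3d thus include values below the detection limit. Over the 10 T cell genes in the family r ran from -0.402 to 0.988 with a median of 0.745 and was above 0 for 7. Prf1, or perforin, the pore-forming protein of cytotoxic granules, was detected on 7 arrays and stood at the negative end with r = -0.402, and Cd2 and Cd4 had -0.198 and -0.0007. Over the 6 B cell genes it ran from -0.447 to -0.197, and over all 74 genes the median was 0.17.

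The 2 genes that passed with a negative correlation were Cd14, a lipopolysaccharide coreceptor of monocytes (r = -0.881, rho = -0.767, exact permutation p = 0.00294 for r, adjusted 0.0436), and Ela1, an elastase (r = -0.812, rho = -0.850, exact permutation p = 0.0017 for r, adjusted 0.0365). Their range over the mice was small, from 9.49 to 10.29 and from 8.55 to 9.70 on the log2 scale. Without the 2 farthest mice neither passed, with r = -0.786 and -0.858. The summed log2 signal of the 10 T cell genes lay between 11.33 and 12.90 on feed B, 11.80 and 14.71 on feed K and 11.26 and 13.32 on feed G. The part that the number of lymphocytes in a piece has in the signal of Ccl5 was not tested.

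**Figure D5:**
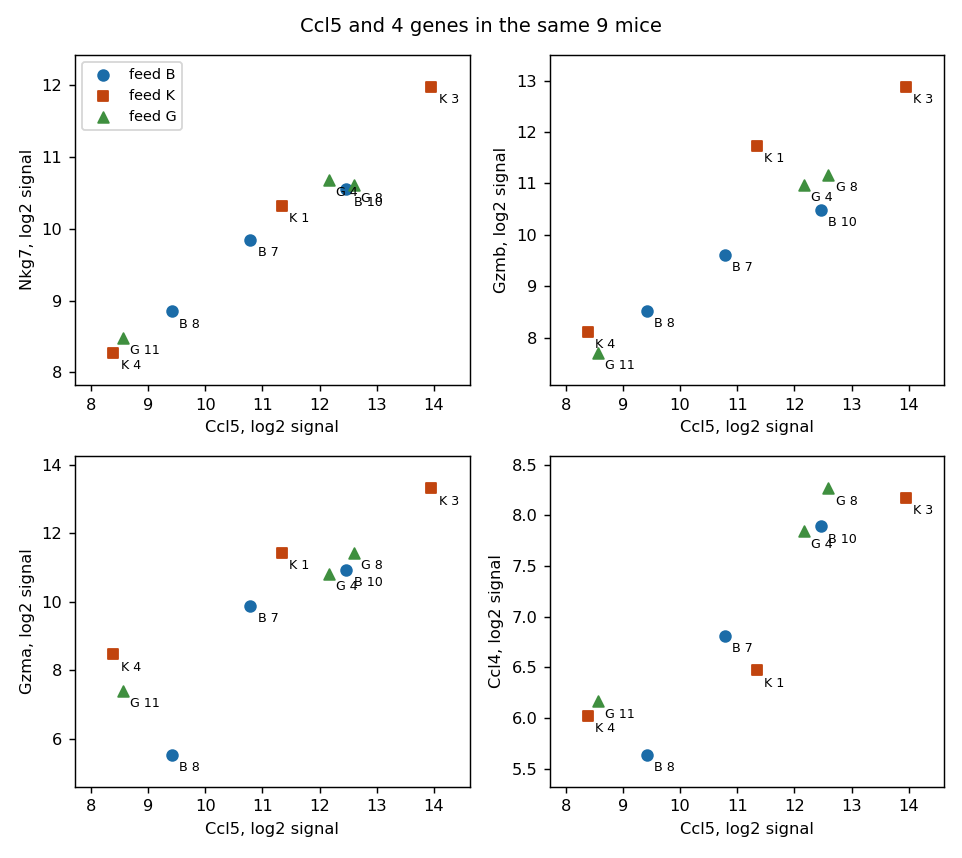
Log2 signal of Nkg7, Gzmb, Gzma and Ccl4 (vertical axes) against that of Ccl5 (horizontal axes), with 1 point per mouse, labelled with its feed letter and number. The mice run from feed K mouse 4 at a Ccl5 signal of 8.39 to feed K mouse 3 at 13.96, and the order for Nkg7 is nearly the same, while Ccl4 falls into 4 mice above 7.8 and 5 below 7.

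Among the 5886 other genes detected on all 9 arrays, the 10 most like Ccl5 by Pearson's r held no chemokine. They were Gabarapl1 (r = 0.887), 2810428C21Rik, Pde9a, BC036563, Igfbp6, Aspa, Nts, Drg1, A830061E14 and Sst (r = 0.828), each described by its correlation over 9 mice without a test. Nts and Sst encode the gut peptides neurotensin and somatostatin. All varied less than Ccl5, with an SD between 0.13 for Drg1 and 0.81 for Nts. Among the 8514 genes detected on at least 5 arrays, Nkg7 and Gzmb held the first and the second place, and 5 genes had r above 0.9. The other 3, named after their values were seen, were 4933408N02Rik, Ctsw, a protease of cytotoxic lymphocytes, and Limk1, a kinase of the actin skeleton.

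Ligands and receptors of eosinophils and T helper 2 cells were detected in part of the mice. Ccl24, an eosinophil attractant, was the most uneven of these, at 10.02, 6.13 and 6.74 on feed B, 11.19, 7.72 and 7.51 on feed K and 7.55, 7.53 and 6.29 on feed G. Feed B mouse 7 and feed K mouse 1 stood above the rest, and the gene was not detected in the mice 8 and 10 of feed B and in feed G mouse 11. Ccl11, or eotaxin, was detected in 2 mice of each feed and had means of 7.90 ± 1.24 on feed B, 7.80 ± 0.57 on feed K and 7.82 ± 1.15 on feed G (SD, n = 3 each), and the 95% intervals of the differences extended 1.68 to either side. Ccr3, the receptor of both, was detected on 7 arrays and ranged from 6.23 in feed G mouse 11 to 9.52 in feed B mouse 7. Every feed G mouse lay below every feed B mouse for Ccr3, by -1.32 on average with a 95% interval of 1.35 on either side (limma adjusted p = 0.858). Ccl1 was detected on 6 arrays and was higher in each feed G mouse, at 8.31, 8.20 and 8.02, than in any feed K mouse, at 7.47, 7.92 and 6.08 (limma adjusted p = 0.960). Ccl17 was detected in all 3 mice of feed G, in 1 of feed K and in none of feed B, where the spot of mouse 8 had failed, and Ccl22 was detected on 3 arrays. Of 3 eosinophil markers on the array, Epx was not detected in any mouse, Prg2 in 2 and Siglec5 in 5.

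Of the neutrophil ligands only Cxcl1 was detected on at least 5 arrays. Its log2 signal lay between 8.67 and 9.44 in all mice, a 1.70-fold range, and its means were 9.23 ± 0.19, 9.12 ± 0.30 and 9.10 ± 0.39 on feeds B, K and G (SD, n = 3 each). The 95% intervals of its differences between feeds extended 0.59 to either side. Cxcl15 was detected in feed B mouse 10 alone, and Cxcl2, Cxcl5 and Cxcl7 in no mouse.

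Chemokines of the stroma and epithelium were detected more widely. Cxcl12, which retains leukocytes and stem cells through Cxcr4, had 10.18, 9.68 and 9.75 on feed B, 9.45, 9.38 and 9.25 on feed K and 9.46, 9.53 and 9.09 on feed G. In this mean of its 2 probes each feed B mouse lay above all others. The difference was -0.51 to both feeds with a 95% interval of 0.48 on either side (limma adjusted p = 0.786 for feed K and 0.850 for feed G). With the arrays scaled to a common median the differences were -0.10 and 0.0036. Its 2 probes were detected on 9 and 8 arrays and correlated at 0.12 over the mice, so they gave different orders of the mice. Neither probe alone had every feed B mouse above all others. On the brighter probe feed B mouse 10, at 10.59, lay below feed K mouse 4 at 10.91 and feed G mouse 4 at 10.99. On the other, feed B mouse 8, not detected, had 8.44 against 8.50 in feed K mouse 3. With the brighter probe alone Cxcl12 was not called at an unadjusted limma p below 0.05 in any comparison.

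Cx3cl1, a membrane-bound ligand made by epithelium and endothelium, was measured by a probe detected in all mice and a probe detected in 3, whose correlation was -0.30. The mean of both was 8.19, 8.66 and 9.04 on feed B, 8.79, 9.27 and 8.35 on feed K and 9.49, 8.73 and 8.23 on feed G. Only 2 mice had its receptor Cx3cr1 detected. Cxcl16, a ligand made by epithelium and macrophages, ranged from 8.06 in feed B mouse 7 to 10.34 in feed G mouse 8. Cxcl16 was detected in 1 mouse of feed B and in all mice of feeds K and G. In the mice 7 and 8 of feed B, whose arrays had the lowest share of detected probes, its signal-to-noise ratio was 2.92 and 2.09. Its receptor Cxcr6 was detected in feed K mouse 3 and feed G mouse 8. Cxcl14 was detected on 8 arrays, between 7.82 and 10.18, Ccl27 on 7, between 8.29 and 9.57, and Cxcl4, or platelet factor 4, on 6, between 7.18 and 8.45.

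Genes of the chemokine system that carry other symbols on this array gave a similar picture of few detected receptors. Of 23 listed, 15 were on the array, 6 were tested, and none was called at an unadjusted limma p below 0.05 in any of the comparisons. Mif, a cytokine that also binds chemokine receptors, and Gnai2, a G protein subunit through which they signal, were detected in all mice. Blr1, the older symbol of the Cxcl13 receptor Cxcr5, was detected on 5 arrays and had 6.12 and 6.22 in the mice 1 and 3 of feed K and 8.63 in mouse 4. Feed B had 8.28, 6.63 and 7.82 and feed G 7.45, 8.26 and 6.63. The mice below 7 were those in which it was not detected, and their order is not read.

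The spread of the detected chemokine genes between mice is given as a description, without a test against other genes. Over the 6 genes detected on all arrays the median SD of log2 signal was 0.471 and the median range was 2.5-fold, beside 0.293 and 1.85-fold over 5887 genes. Over the 22 genes detected on at least 5 arrays the median SD was 0.816, beside 0.377 over 8555 genes, but these sets differ in signal, since 6 of the 22 and 5887 of the 8555 were detected on all arrays. Cxcl13, Ccl5 and Ccl24 stood above percentile 99 of the SD among genes detected on at least 5 arrays, whereas Ccl25, Cxcl1 and Cxcl12 stood at percentiles 21.7, 31.5 and 39.8. Within feeds the median SD of the 22 genes was 0.754.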

How the data were processed

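The authors deposited the scanner output of each Applied Biosystems mouse array, with a signal intensity, its standard deviation, a signal-to-noise score and a quality flag per spot. Their deposited table of the whole series held the assay-normalized intensity of the same arrays (100% of its values identical) and served as an alternative.

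Spots flagged above 5000 were dropped. Signals of 33012 probes were quantile normalized and log2 transformed, and the probes of each gene were averaged. Genes detected on at least 3 arrays were fitted with lmFit and eBayes of limma 3.58.1 (R 4.3.3) on all 9 arrays, with Benjamini-Hochberg adjustment at 0.05. For a gene undetected throughout a feed, the fold took for that feed, per array, the larger of its signal and the dimmest detected probe. Correlations have two-sided exact permutation p-values over 362880 orders of the mice (Python 3.11.15, scipy 1.17.1). The scripts were tested on simulated data. The number of arrays limits the precision.

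Members, lists and tests were chosen with earlier results of these data known. Every mouse is given for Ccl5, for genes detected on all arrays and for genes with an unadjusted p below 0.05 among feeds. Values by mouse of other genes were chosen for print after they were seen. Other named genes are those of the marker and pathway lists and the 10 most like Ccl5. Some items of the lists are not reported here.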

Additional observations from a re-analysis of the deposited data

How the results depend on the processing

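No chemokine or receptor gene passed the feed test after adjustment under any of its 24 alternatives, and none passed in the 3 comparisons of feeds under any of the 22 alternatives run for each. Over all genes, 1 passed the feed test with genes detected on all 9 arrays only and 1 with an F test without moderation, and with 1 array left out the number was between 0 and 3, the highest without feed B mouse 10. Without that mouse 10 genes of the array also passed between feeds K and B. The exact permutation test of F cannot give a p below 0.00357. For the correlation of chemokine genes with Ccl5, 4 passed with median scaling and 3 with the series table, and 0 with any 1 array left out. For the marker genes, 0 passed after subtracting the feed means, 1 by Spearman rho, 0 among genes detected on all 9 arrays, and 1 to 5 with 1 array left out. Without the mice 7 and 8 of feed B 2 passed, and without the 2 mice farthest from the median of Ccl5 2 passed, both alternatives chosen after seeing the data. The difference of Cxcl9 between feeds K and B turned to -0.10 without the mice 7 and 8 of feed B, also chosen after seeing the data, and that of Cxcl12 between feeds G and B turned to 0.0036 with median scaling. At an unadjusted p below 0.05 in the feed test, 518 genes of the array were called, 1077 with median scaling, 890 without a filter on dim genes and 378 to 964 with 1 array left out, the most without feed B mouse 10. Apart from the fewer genes or mice that some of these settings leave, the cause was not tested. Leaving out the mice 1 and 3 of feed K, likewise chosen after seeing the data, leaves 1 mouse of that feed, assumed to vary like the others, as does leaving out the mice 7 and 8 of feed B. Nkg7 passed under 17 of 18 alternatives, Gzmb under 10 and Gzma under 7. The exception for Nkg7 was that of subtracted feed means. There the smallest possible permutation p of 0.00463 cannot pass adjustment for a single gene of the 74, so that outcome does not count against it. No paired analysis was possible because the feeds share fewer than 2 mouse numbers in any pair. Leaving out single mice for the folds of Cxcl11 and Cxcr4 was also chosen after seeing the data. A batch block was not run because the headers give no scan date or other batch holding over 1 array. With 3 mice per feed and signals near background for most receptors, small differences in these genes could not be detected.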
